A study of Capra hircus with 2 samples.

Results

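The fibroblast growth factor (FGF) system of cashmere goat skin was followed through 7 listed genes: the ligands FGF2, FGF5 and FGF7, the ligand-binding protein FGFBP1, and the receptors FGFR1, FGFR2 and FGFR3. They were found by symbol among the 27137 measured features, where 6 of the 7 were present, and FGFR3 was not analysed here. The NCBI gene IDs were 102186892 for FGF2, 102171226 for FGF5, 102178454 for FGF7, 102173173 for FGFBP1, 102180282 for FGFR1 and 102170938 for FGFR2. The study used droplet-based single-cell RNA sequencing of anagen skin, the growth phase of the hair follicle, from the shoulder of healthy Liaoning cashmere goats. There was 1 library from a goat with coarse cashmere (CT-LCG) and 1 from a goat with fine cashmere (FT-LCG). The cut tissue had been washed and cleared of blood stains and fat as far as possible before dissociation, and no age, sex or treatment was given for either goat. With 1 goat per fibre type no test of the types was possible, and each comparison of CT-LCG with FT-LCG is a comparison of those libraries.

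FGFs are secreted proteins that are held in the extracellular matrix by heparan sulfate and that signal through receptor tyrosine kinases. FGF2 is a broadly acting mitogen without a classical signal peptide. FGF7, also called keratinocyte growth factor, is typically made by mesenchymal cells and acts on the epithelial splice form of FGFR2. FGF5 is known as the factor that ends anagen, since animals without it grow long hair. FGFBP1 is a secreted carrier that releases FGFs from the matrix. In skin, FGFR2 is chiefly an epithelial receptor, whereas FGFR1 is most prominent in mesenchyme, and the dermal papilla, a mesenchymal condensation at the follicle base, exchanges FGFs with the hair matrix above it. Counts at the 3' end of transcripts do not separate the splice forms of FGFR1 or FGFR2, so both forms are summed below.

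The deposited table of kept cells held 3443 CT-LCG cells beside 9608 from FT-LCG. The median depth was 2314 unique molecular identifiers (UMIs, each 1 captured transcript) per cell in CT-LCG against 6121.5 in FT-LCG, and 11 barcode sequences were shared by the kept cells of both libraries. The cells were grouped into 20 clusters with all FGF genes kept out of the variable genes, and 10 clusters could be named from marker lists. The other 10 are called by their leading genes. Levels are UMIs of a gene per 10000 UMIs of all genes, with exact Poisson 95% intervals. Shares of cells and shares of UMIs are given with Clopper-Pearson 95% intervals. They carry counting error and nothing of the spread between goats. The intervals of levels, ratios and shares of UMIs count the UMIs of a cell as independent and are too narrow where few cells hold many UMIs.

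The ligands were rare and the receptors moderately abundant. FGF2 had 196 UMIs in 118 cells of CT-LCG and 370 UMIs in 242 cells of FT-LCG. FGF7 had 104 UMIs in 14 cells of CT-LCG and 218 UMIs in 97 cells of FT-LCG. FGF5 had 5 UMIs in 4 cells and 34 UMIs in 23 cells, respectively. All 3 ligands were thus detected in both goats, yet in a small share of the cells. FGFR1 had 508 UMIs in 276 cells of CT-LCG and 2765 in 1466 cells of FT-LCG, and FGFR2 had 525 in 405 cells and 2566 in 1706 cells. FGFBP1 was the most abundant member, with 3952 UMIs in 756 cells of CT-LCG and 16776 UMIs in 2996 cells of FT-LCG.

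**Figure D1:**
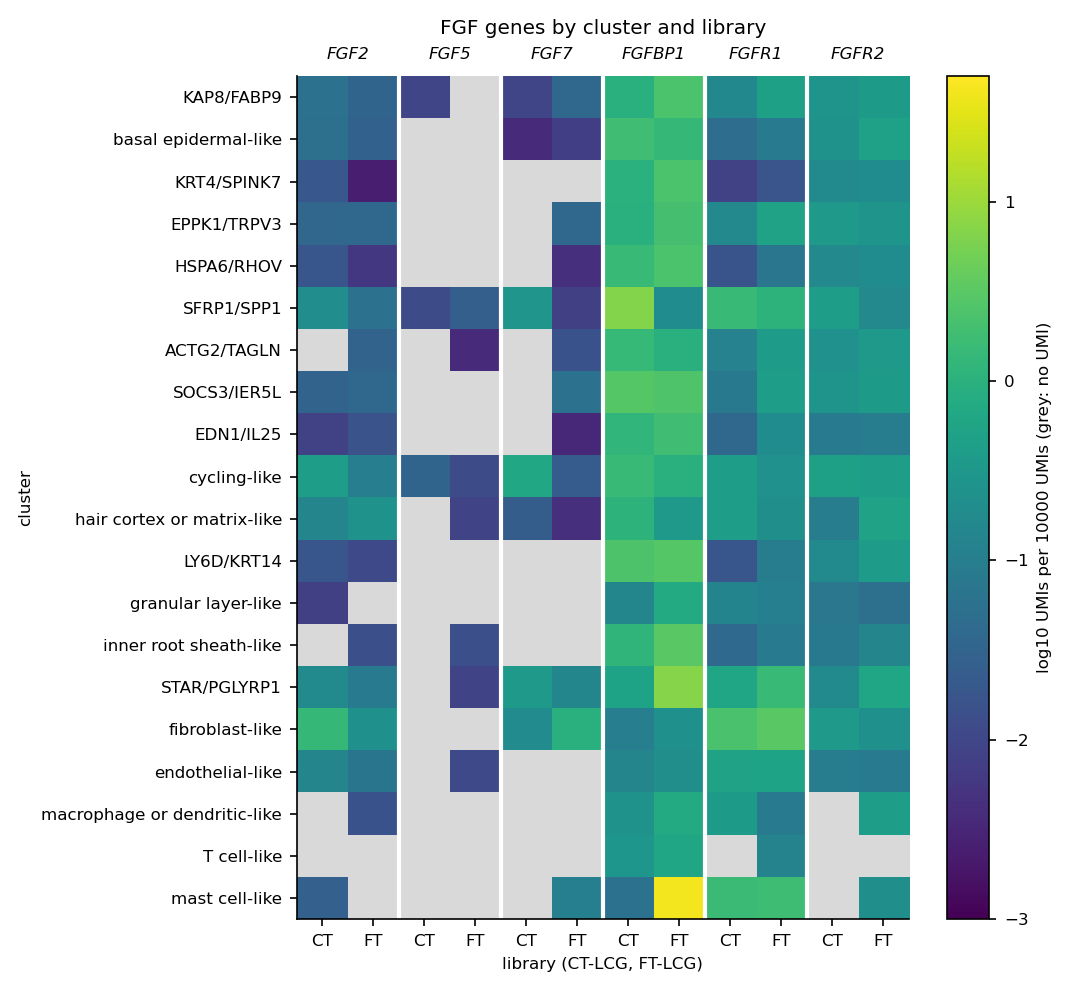
Colour gives the log10 of the level (UMIs per 10000 UMIs) of each of the 6 detected members in each cluster (vertical axis) and library (horizontal axis), with grey where no UMI was seen. FGF2, FGF7 and FGFR1 had their highest mean level over both libraries in the fibroblast-like cluster, FGF5 and FGFR2 in the cycling-like cluster, and FGFBP1 in the mast cell-like cluster, where 1 FT-LCG cell held 279 of 380 UMIs. FGFR1 alone ranked first in the same cluster in each library.

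When clusters were ordered by the mean level of both libraries, FGF2, FGF7 and FGFR1 were highest in the fibroblast-like cluster, which held 100 CT-LCG and 123 FT-LCG cells and expressed all 8 fibroblast markers in both. FGF5 and FGFR2 were highest in the cycling-like cluster and FGFBP1 in the mast cell-like cluster. Among the 11732 genes with at least 200 UMIs, 13.5% were highest in the fibroblast-like cluster, 9.47% in the cycling-like cluster and 10.2% in the mast cell-like cluster. FGF5, with fewer UMIs, was not among those genes. The fibroblast-like cluster divided further into 6 sub-clusters, of which a dermal papilla-like, a collagen-rich fibroblast-like and a melanocyte-like sub-cluster could be named. A sub-cluster led by ACTG2 and S100A9, with 10 cells from CT-LCG next to 19 from FT-LCG, also carried epidermal keratins and smooth muscle genes, with smooth muscle or sheath markers at 7.04 per 10000 UMIs in CT-LCG against 295 in FT-LCG. Values of the fibroblast-like cluster that rest on it are given with and without it.

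FGF2 was most concentrated in the fibroblast-like cluster of CT-LCG. That cluster held 66 FGF2 UMIs in 36 of 100 CT-LCG cells, a level of 1.36 (1.06 to 1.74), and 13 UMIs in 10 of 123 FT-LCG cells, a level of 0.229 (0.122 to 0.392). It made up 2.90% of the CT-LCG cells and 33.7% (27.1 to 40.8) of the FGF2 UMIs of that library, against 1.28% of cells and 3.51% (1.88 to 5.93) of UMIs in FT-LCG. In CT-LCG 61 of the 66 UMIs came from the dermal papilla-like cells, and in FT-LCG 6 of the 13. The CT-LCG sub-cluster of 62 cells had 61 FGF2 UMIs in 31 cells, a level of 1.83 (1.4 to 2.34), with at most 6 UMIs in a cell. In FT-LCG it numbered 12 cells, of which 3 held 6 FGF2 UMIs, a level of 1.05 (0.387 to 2.29). Of these UMIs 4 lay in 1 cell, and the level without that cell was 0.40. The papilla-like levels of FGF2 therefore overlapped between the libraries by counting error, while the number of papilla-like cells captured was 62 against 12.

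The papilla-like sub-cluster was named from its marker list, so the values of these markers describe it and do not check the label. Of 10 dermal papilla markers 9 were detected in the CT-LCG cells, with CORIN at 0, and their summed level was 38.2 per 10000 UMIs. In the FT-LCG cells 6 of 10 were detected at a summed level of 25.3, and RSPO2, RSPO4, CORIN and NOG were at 0. Within the CT-LCG cells the markers summed to 46.6 in the 31 cells with an FGF2 UMI and to 26.9 in the 31 without one. Fibroblast markers ran the other way, at 14.9 and 27.2. In FT-LCG the papilla markers were lower with FGF2, at 18.4 in 3 cells against 27.5 in the 9 without it. Fibroblast markers there were at 4.41 and 13.6.

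A further site of FGF2 was the epithelium that builds the fibre. The hair cortex or matrix-like cluster had 11 FGF2 UMIs in 4 of 165 CT-LCG cells, a level of 0.136 (0.0680 to 0.244), and 111 UMIs in 36 of 343 FT-LCG cells, a level of 0.254 (0.209 to 0.306). It was the largest source in FT-LCG, with 30.0% (25.4 to 35.0) of the FGF2 UMIs of that library from 3.57% of its cells, and 18 UMIs lay in 1 cell. The cycling-like cluster had 41 UMIs in 8 of 139 CT-LCG cells, 14 of them in 1 cell, and 60 UMIs in 33 of 410 FT-LCG cells. Levels there were 0.440 (0.316 to 0.597) and 0.102 (0.0778 to 0.131). The granular layer-like cluster, the outermost living epidermis, was taken as the background and had 2 FGF2 UMIs in 99 CT-LCG cells and 0 in 322 FT-LCG cells, which allows a share of up to 0.932%.

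Depth differed between cells, so shares were also computed after each cell was thinned to 1000 UMIs. For FGF2 the thinned share was 11.3% (5.80 to 19.4) of 97 fibroblast-like CT-LCG cells and 2.73% (0.566 to 7.76) of 110 FT-LCG cells, against 36.0% and 8.13% unthinned. In the granular layer-like cluster it was 0 of 99 and 0 of 321. In the cortex or matrix-like cluster it was 0 of 140 CT-LCG and 5 of 309 FT-LCG cells, or 1.62% (0.527 to 3.74). The fibroblast-like share of CT-LCG thus lay above the background, and the interval of the FT-LCG share overlapped it. The cortex or matrix-like share was 0 in CT-LCG, and its FT-LCG interval also overlapped the background. Without thinning, the FT-LCG level of 0.254 (0.209 to 0.306) lay above the granular layer-like upper limit of 0.00613.

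FGF7 had a different distribution in the 2 goats. In FT-LCG the fibroblast-like cluster held 54 FGF7 UMIs in 24 of 123 cells, a level of 0.952 (0.715 to 1.24), and 51 UMIs at 1.16 (0.866 to 1.53) without the ACTG2-led sub-cluster. In CT-LCG it held 9 UMIs in 6 of 100 cells, a level of 0.186 (0.0851 to 0.353). The log2 ratio of CT-LCG to FT-LCG in this cluster was -2.36 (-3.56 to -1.33), opposite in sign to that of FGF2, which was 2.57 (1.7 to 3.56). Both ratios mix sub-clusters, since papilla-like cells were 62 of 100 cells in CT-LCG and 12 of 123 in FT-LCG. Within papilla-like cells the FGF2 ratio was 0.79 (-0.41 to 2.29), an interval that includes 0, and FGF7 in these cells is given below. Collagen-rich fibroblast-like cells had 3 FGF7 UMIs in 3 of 8 cells of CT-LCG and 11 in 8 of 31 cells of FT-LCG. Cells led by RGS5 and HIGD1B, both genes of vessel mural cells, had 5 UMIs in 2 of 9 cells and 16 in 9 of 32. The levels of these sub-clusters overlapped between the libraries.

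FGF7 also differed between the papilla-like cells of the goats. None of the 62 CT-LCG papilla-like cells had an FGF7 UMI, which allows a share of up to 4.84% and a level of up to 0.0898. In FT-LCG 4 of 12 papilla-like cells held 22 UMIs, distributed as 9, 7, 5 and 1, at a level of 3.87 (2.42 to 5.85). The exact binomial interval of the log2 ratio of CT-LCG to FT-LCG had an upper limit of -5.01. That limit counts the 22 UMIs of 4 cells as independent and therefore overstates the certainty. These 4 cells expressed 5 of the 10 papilla markers at a summed level of 18.2, and the 8 FT-LCG cells without FGF7 expressed 6 of 10 at 28.3. The difference rests on 4 cells of 1 goat.

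**Figure D2:**
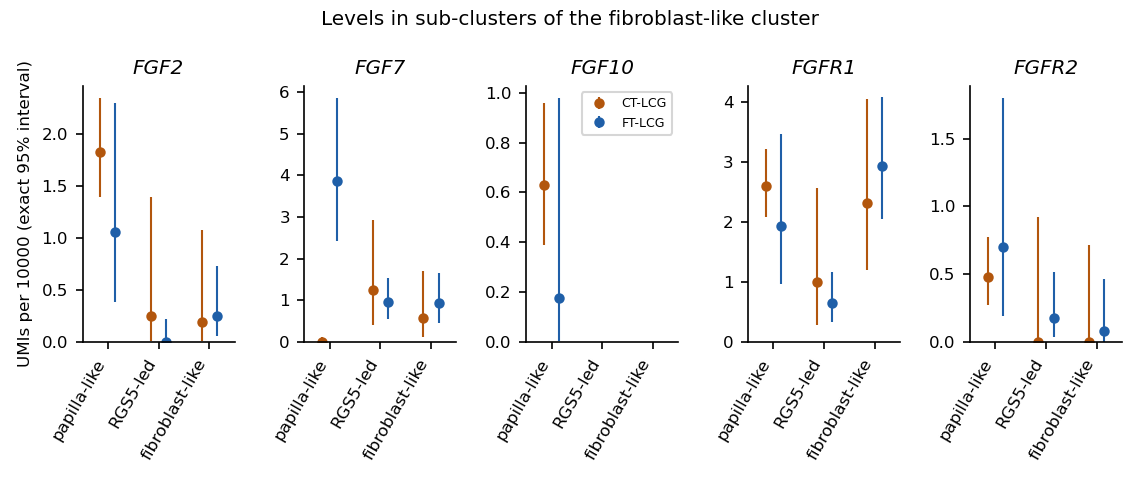
Level of FGF2, FGF7, FGF10 and both receptors (UMIs per 10000 UMIs, points with exact Poisson 95% intervals) in 3 sub-clusters of the fibroblast-like cluster, by library, each panel with its own scale and FGF10 drawn only where it had a UMI. In the dermal papilla-like cells FGF2 was at 1.83 in CT-LCG against 1.05 in FT-LCG, and FGF7 was at 0 and 3.87.

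Outside the fibroblast-like cluster FGF7 was found in epithelial clusters, often with several UMIs per cell. In CT-LCG 62 of the 104 UMIs lay in 1 cycling-like cell of 130262 UMIs, and 23 lay in 3 of 123 cells led by SFRP1 and SPP1, of which 1 held 11. In FT-LCG the cycling-like cluster had 14 UMIs, all in 1 of 410 cells, and the SFRP1-led cluster had 4 in 3 of 670 cells. The log2 ratios of CT-LCG to FT-LCG in these clusters were 4.81 (3.95 to 5.76) and 5.23 (3.68 to 7.22). The first rests on 1 cell of each library and the second on 3 of each. Their intervals count UMIs as independent and are therefore too narrow. Also in FT-LCG, the cluster led by STAR and PGLYRP1 had 62 UMIs in 25 of 306 cells and the cluster led by SOCS3 and IER5L had 45 in 14 of 635 cells, with up to 9 and 10 UMIs per cell. The STAR-led cluster had 6 UMIs in 1 of 38 CT-LCG cells, and the SOCS3-led cluster 0 in 106. The 73 FT-LCG cells with FGF7 outside the fibroblast-like cluster carried keratin UMIs at 192 per 10000, against 231 in the cells of those clusters without FGF7. Fibroblast genes were at 0.328 per 10000 UMIs against 0.406, and 19.2% of the cells with FGF7 held a UMI of one, against 12.6% of the cells without. Their part in the FGF7 values was not tested. FGF7 was at 0 in the granular layer-like and endothelial-like clusters of both libraries.

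The thinned FGF7 share was 2 of 97 fibroblast-like CT-LCG cells, or 2.06% (0.251 to 7.25), and 8 of 110 FT-LCG cells, or 7.27% (3.19 to 13.8). The unthinned shares were 6% and 19.5%. The STAR-led cluster of FT-LCG stood at 2.96% (1.36 to 5.55) of 304 cells, and the granular layer-like cells at 0 of 99 and 0 of 321. The lower bounds for the fibroblast-like and STAR-led cells of FT-LCG were above the upper bound of 1.14% for FT-LCG granular layer-like cells.

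FGF5 was sparse, and in FT-LCG most of its UMIs lay in the SFRP1-led and cycling-like clusters. No FGF5 UMI was seen in the fibroblast-like cluster, where 0 of 100 CT-LCG cells allows a share of up to 3.00% and 0 of 123 FT-LCG cells up to 2.44%. The SFRP1-led cluster, which expressed 7 of 8 measured outer root sheath markers in CT-LCG against 8 of 8 in FT-LCG as well as gland keratins, had 1 UMI in CT-LCG and 14 UMIs in 7 of 670 cells in FT-LCG. The cycling-like cluster had 3 UMIs in 2 CT-LCG cells and 7 in 6 FT-LCG cells. The levels of these clusters in FT-LCG were 0.0266 (0.0146 to 0.0447) and 0.0119 (0.00478 to 0.0245), and their intervals overlapped. The SFRP1-led cluster held 41.2% (24.7 to 59.3) of the FGF5 UMIs of FT-LCG and 6.15% of all its UMIs. Basal epidermal-like cells, 0 of 1056, and KRT4-led cells, 0 of 795, had no FGF5 UMI in FT-LCG, which allows levels of up to 0.00278 and 0.00249, below the SFRP1-led interval. After thinning, 1 CT-LCG cell and 2 FT-LCG cells kept an FGF5 UMI. In CT-LCG 5 UMIs did not allow clusters to be ordered.

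**Figure D3:**
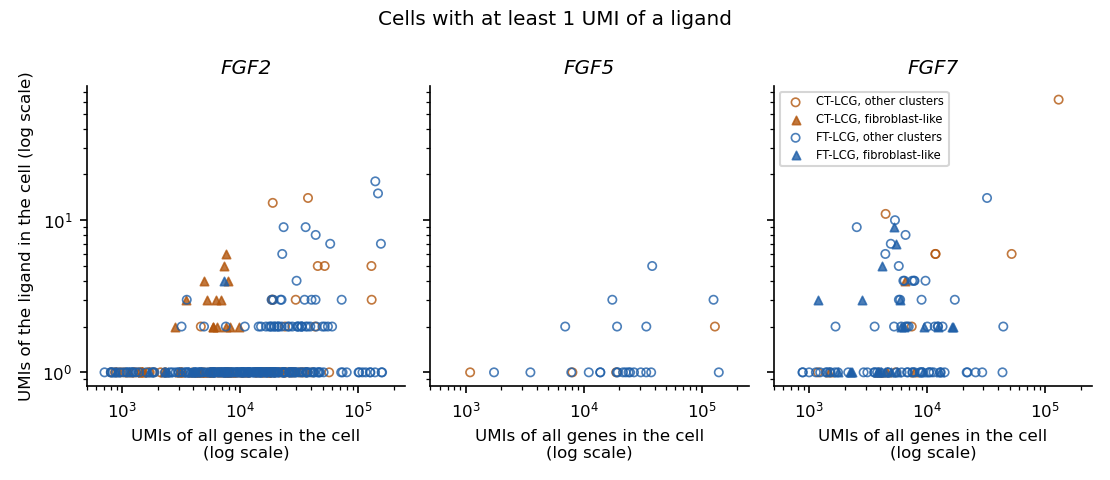
UMIs of FGF2, FGF5 and FGF7 in each cell with at least 1 such UMI against the cell's total UMIs (both axes log), with triangles for fibroblast-like cells, circles for other clusters and colour for the library. Many ligand-positive cells held 1 UMI, whereas 1 CT-LCG cycling-like cell of 130262 UMIs held 62 FGF7 UMIs.

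Among the 22 ligand genes of the family, all were among the features, 18 had a UMI and 7 had at least 100. For these and the pathway genes below, the cluster named as highest is that of the highest mean level of both libraries. FGF11, an intracellular family member that is not secreted, had the most, with 114 UMIs in CT-LCG against 596 in FT-LCG, and was highest in the SFRP1-led cluster at 0.136 and 0.255. FGF12, also intracellular, had 87 and 347 UMIs and was highest in the cluster led by ACTG2 and TAGLN. FGF18, a secreted ligand of the hair follicle linked to the resting phase, had 170 and 240 UMIs and was highest in the fibroblast-like cluster at 0.248 and 0.229. In single libraries the EPPK1-led cluster of CT-LCG at 0.419 and the SFRP1-led cluster of FT-LCG at 0.257 were higher. Elsewhere FGF18 differed between the goats. The SFRP1-led cluster had 9 UMIs in CT-LCG against 135 in FT-LCG, while the EPPK1-led cluster had 36 and 6.

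FGF10, a papilla ligand of the FGFR2 epithelial form, was looked at because of FGF7 and was chosen after its values were seen. It had 23 UMIs in CT-LCG against 3 in FT-LCG. Of these, 21 lay in 15 of the 62 CT-LCG papilla-like cells, a level of 0.628 (0.389 to 0.960), and 1 lay in 1 of 12 FT-LCG papilla-like cells, a level of 0.176 (0.00445 to 0.979). In CT-LCG 13 of the 15 FGF10 cells also had FGF2. The intervals of FGF10 in the papilla-like cells overlapped between the libraries.

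FGFBP1, the carrier that mobilises FGFs from the matrix, was an epithelial transcript. In the basal epidermal-like cluster it was at 1.80 (1.65 to 1.97) in CT-LCG against 1.33 (1.27 to 1.4) in FT-LCG, in 46.4% and 35.5% of cells. In the cells led by LY6D and KRT14 it was at 2.41 (2.18 to 2.66) and 2.93 (2.75 to 3.10), and in the SOCS3-led cells at 2.89 (2.6 to 3.2) and 2.55 (2.43 to 2.66). The fibroblast-like cluster had 5 UMIs at 0.103 (0.0336 to 0.241) and 13 at 0.229 (0.122 to 0.392), and the endothelial-like background 3 UMIs at 0.141 (0.0290 to 0.411) and 19 at 0.210 (0.126 to 0.327). In these mesenchymal and vascular cells FGFBP1 was thus below the level of basal keratinocytes in each goat, and the papilla-like cells had 3 UMIs in CT-LCG against 0 in FT-LCG.

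Several high FGFBP1 levels rested on few cells. The mast cell-like cluster, which ranked first by the mean, had 2 UMIs in 66 CT-LCG cells and 380 in 4 of 26 FT-LCG cells, with 279 in 1 cell. Gland keratins in the same FT-LCG cells summed to 21.3 per 10000, against 0.0839 in CT-LCG, and mast cell markers to 40.1 against 88.2. Their part in the FGFBP1 value was not tested. The SFRP1-led cluster of CT-LCG had 554 UMIs in 21 cells, of which 321 lay in 1 cell, for a level of 6.87 that was 2.96 without that cell, against 0.190 (0.155 to 0.232) in FT-LCG. The STAR-led cluster had 9 UMIs in 7 of 38 CT-LCG cells, a level of 0.534 (0.244 to 1.01), and 3067 in 116 of 306 FT-LCG cells, a level of 7.04 (6.79 to 7.29). The cell with the most held 420 of the 3067, and the level without it was 6.29, outside that interval. The few cells with the most held 1439 together. The interval counts UMIs as independent and is therefore too narrow.

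Thinning placed the FGFBP1 share of FT-LCG cells at 17.4% (13.3 to 22.2) in the STAR-led cluster, 17.1% (13.4 to 21.3) in the LY6D-led cluster and 10.2% (8.47 to 12.2) in basal epidermal-like cells. The endothelial-like background was 2.19% (0.454 to 6.27). In CT-LCG the LY6D-led cells stood at 17.9% (11.2 to 26.6), the basal cells at 11.9% (7.67 to 17.3) and the endothelial-like cells at 4.00% (0.488 to 13.7). The FT-LCG shares of these epithelial clusters lay above the background, whereas in CT-LCG the basal and LY6D-led intervals overlapped it. The intervals of the basal and of the LY6D-led shares overlapped between the goats.

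FGFR1 marked mesenchymal cells, mast cells and a few epithelial clusters. In the fibroblast-like cluster it had 110 UMIs in 49 of 100 CT-LCG cells, a level of 2.27 (1.87 to 2.74), and 177 in 53 of 123 FT-LCG cells, a level of 3.12 (2.68 to 3.62). Of the FT-LCG UMIs 107 came from the 19 cells of the ACTG2-led sub-cluster, and without it the levels were 2.22 (1.82 to 2.69) and 1.60 (1.25 to 2.02). The order of the goats in this cluster thus turned with 19 cells. Papilla-like cells had 87 FGFR1 UMIs in 36 of 62 CT-LCG cells at 2.60 (2.09 to 3.21) and 11 in 5 of 12 FT-LCG cells at 1.93 (0.965 to 3.46). Collagen-rich fibroblast-like cells stood at 2.32 (1.20 to 4.05) and 2.93 (2.04 to 4.08), and the levels of both sub-clusters overlapped between the goats.

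Next in the order of FGFR1 came the mast cell-like cluster, with 58 UMIs in 27 of 66 CT-LCG cells at 1.62 (1.23 to 2.10) and 16 in 8 of 26 FT-LCG cells at 1.74 (0.993 to 2.82). The SFRP1-led cluster followed at 1.54 (1.28 to 1.83) and 1.12 (1.03 to 1.21), and the STAR-led cluster at 0.593 (0.284 to 1.09) and 1.45 (1.34 to 1.56). The mast cell-like and SFRP1-led levels did not differ beyond counting error in CT-LCG, nor did the mast cell-like and STAR-led levels in FT-LCG. Without the ACTG2-led sub-cluster the fibroblast-like level in FT-LCG also overlapped both. Endothelial-like cells were lower, at 0.515 (0.257 to 0.922) and 0.529 (0.390 to 0.702). The basal epidermal-like cells, at 0.0474 (0.0252 to 0.0810) and 0.0890 (0.0721 to 0.109), ranked 15 of 20, and the KRT4-led cells, at 0.00864 and 0.0174, ranked last.

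After thinning, FGFR1 was found in 20.6% (13.1 to 30.0) of CT-LCG and 23.6% (16.1 to 32.7) of FT-LCG fibroblast-like cells, 15.2% (7.51 to 26.1) and 21.7% (7.46 to 43.7) of mast cell-like cells, and 13.2% (7.56 to 20.8) and 16.6% (13.7 to 19.8) of SFRP1-led cells. Its background in the granular layer-like cells was 2.02% (0.246 to 7.11) and 1.87% (0.689 to 4.02). All 3 clusters were thus above the background in both goats.

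FGFR2 was found widely over the epithelium and in mesenchymal cells. In basal epidermal-like cells it had 70 UMIs in 56 of 194 CT-LCG cells, a level of 0.255 (0.199 to 0.322), and 534 in 365 of 1056 FT-LCG cells, a level of 0.495 (0.454 to 0.539). In the cycling-like cluster the levels were 0.472 (0.343 to 0.634) and 0.414 (0.364 to 0.470), and in the STAR-led cluster 0.178 (0.0367 to 0.520) and 0.601 (0.531 to 0.679). The fibroblast-like cluster had 17 UMIs in 13 of 100 CT-LCG cells at 0.351 (0.205 to 0.563), beside 13 in 12 of 123 FT-LCG cells at 0.229 (0.122 to 0.392). Its papilla-like cells had 16 UMIs in 12 of 62 CT-LCG cells at 0.479 (0.274 to 0.777), beside 4 in 4 of 12 FT-LCG cells at 0.703 (0.192 to 1.80). The fibroblast-like and papilla-like intervals overlapped that of the cycling-like cluster in the same library. The basal epidermal-like interval lay below that of the cycling-like cluster in CT-LCG, and the STAR-led interval lay above it in FT-LCG. By share of cells with FGFR2 the STAR-led cells of FT-LCG were not above the cycling-like cells, at 28.8% against 31.5%. Of the 262 STAR-led UMIs 25 lay in 1 cell. No FGFR2 UMI was seen in the mast cell-like cells of CT-LCG or in the T cell-like cells of either library. The endothelial-like background was 0.0936 (0.0113 to 0.338) and 0.0882 (0.0381 to 0.174), and the granular layer-like cells were low as well, at 0.0740 (0.0445 to 0.116) and 0.0549 (0.0378 to 0.0771). By level FGFR2 thus lay above both in the basal and cycling-like cells of FT-LCG. After thinning, the shares of these FT-LCG cells were 4.64% (3.45 to 6.09) and 4.64% (2.77 to 7.23). Both overlapped the endothelial-like 1.46% (0.177 to 5.17) and lay above the granular layer-like upper bound of 1.14%. In CT-LCG the thinned basal share was 1.03% (0.125 to 3.67), the cycling-like 4.03% (1.32 to 9.16) and the endothelial-like 4.00% (0.488 to 13.7). The first rank of the cycling-like cluster was not set apart by counting error, since its CT-LCG interval covered the SFRP1-led level of 0.421 and the STAR-led level of FT-LCG was higher. The macrophage or dendritic-like cells of FT-LCG had 53 FGFR2 UMIs in 26 of 77 cells and 97 FGFBP1 UMIs in 19, against 0 and 4 UMIs in 30 CT-LCG cells.

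In the fibre-building epithelium FGFR2 differed between the goats. The cortex or matrix-like cluster had 8 FGFR2 UMIs in 8 of 165 CT-LCG cells, a level of 0.0990 (0.0427 to 0.195), and 228 in 121 of 343 FT-LCG cells, a level of 0.521 (0.456 to 0.593). The log2 ratio was -2.40 (-3.63 to -1.39). FGFR1 in the same cells had 34 UMIs at 0.421 (0.291 to 0.588) and 95 at 0.217 (0.176 to 0.265), a log2 ratio of 0.95 (0.34 to 1.53). The 8 measured cortex and matrix markers summed to 27.4 per 10000 UMIs in CT-LCG against 104 in FT-LCG, and the median depth of these cells was 1470 and 9315 UMIs. The part of these differences in the receptor values was not tested. Thinned shares of FGFR2 in this cluster were 1.43% (0.174 to 5.07) and 4.21% (2.26 to 7.09), with overlapping intervals. The higher FGFR1 level of CT-LCG was not seen by cells, with FGFR1 in 9.70% of them against 15.7% in FT-LCG. Its thinned shares were 2.86% (0.784 to 7.15) and 3.88% (2.02 to 6.69). The 34 FGFR1 UMIs of CT-LCG lay in 16 cells, and the few with the most held 21 together.

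The balance of both receptors was summarised as the FGFR1 share of FGFR1 and FGFR2 UMIs. Capture can differ between transcripts, so only differences of this share between cells were read, not its value. Over all kept cells it was 49.2% (46.1 to 52.3) in CT-LCG and 51.9% (50.5 to 53.2) in FT-LCG. Mast cell-like cells were at 100% (93.8 to 100) and 88.9% (65.3 to 98.6), fibroblast-like cells at 86.6% (79.4 to 92.0) and 93.2% (88.6 to 96.3), and endothelial-like cells at 84.6% (54.6 to 98.1) and 85.7% (73.8 to 93.6). Without the ACTG2-led sub-cluster the fibroblast-like shares were 86.7% and 88.6%. The SFRP1-led cells, although epithelial, were close to these at 78.5% (71.3 to 84.6) and 87.5% (84.7 to 89.9). At the other end stood the KRT4-led cells at 4.85% (1.60 to 11.0) and 8.40% (5.28 to 12.6), the LY6D-led cells at 9.68% (2.04 to 25.8) and 20.2% (14.5 to 27.0), and the basal epidermal-like cells at 15.7% (8.61 to 25.3) and 15.2% (12.5 to 18.3). In both goats the intervals of the first 4 of these clusters lay wholly above those of the last 3.

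**Figure D4:**
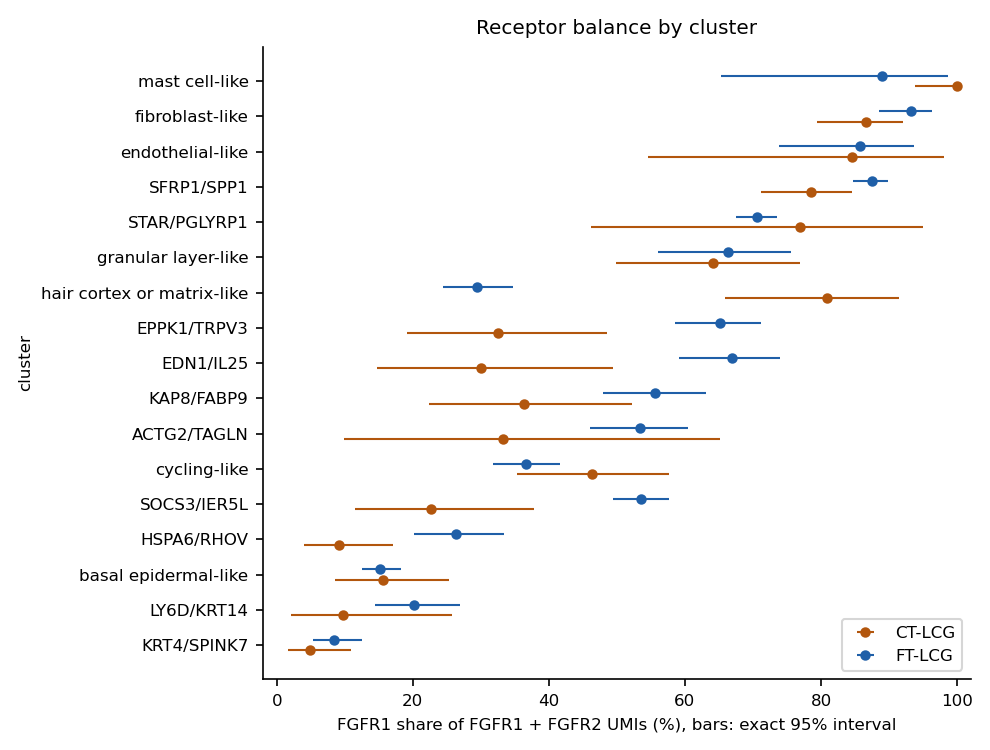
FGFR1 UMIs as a percent of FGFR1 and FGFR2 UMIs per cluster and library, with Clopper-Pearson 95% intervals. Basal epidermal-like cells were at 15.7% in CT-LCG, 15.2% in FT-LCG, and fibroblast-like cells at 86.6% and 93.2%, while cortex or matrix-like cells were at 81.0% and 29.4%.

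Some other epithelial clusters had different balances in the goats. The cortex or matrix-like share was 81.0% (65.9 to 91.4) in CT-LCG and 29.4% (24.5 to 34.7) in FT-LCG. The direction was the opposite in the SOCS3-led cells, at 22.7% (11.5 to 37.8) and 53.5% (49.4 to 57.7), in the EPPK1-led cells, at 32.6% (19.1 to 48.5) and 65.1% (58.6 to 71.2), in the EDN1-led cells, at 30.0% (14.7 to 49.4) and 66.9% (59.2 to 74.0), and in the HSPA6-led cells, at 9.09% (4.01 to 17.1) and 26.4% (20.1 to 33.4). The intervals of each of these pairs did not overlap, but they count UMIs as independent and are therefore too narrow. In CT-LCG the cortex or matrix-like share rests on 42 UMIs and the EDN1-led share on 30. By share of cells FGFR1 was not higher in the cortex or matrix-like cells of CT-LCG, as given above. Both receptors were seen together in 49 of 3443 CT-LCG cells and 321 of 9608 FT-LCG cells. FGFR1 was seen in 276 and 1466 cells in all, and FGFR2 in 405 and 1706. The median depths of the cells with both, 12636 and 15740 UMIs, were above those of all kept cells.

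Ligand and receptor were also detected in the same cells. Of the 31 CT-LCG papilla-like cells with FGF2, 20 had FGFR1 and 7 had FGFR2, and of the 31 without FGF2, 16 and 5 did. Of the 24 FT-LCG fibroblast-like cells with FGF7, 12 had FGFR1 and 4 had FGFR2. In the CT-LCG fibroblast-like cluster the median depth was 5752 UMIs for FGF2-positive and 3665.5 for FGF2-negative cells, and 4213 for FGF7-positive and 4411.5 for FGF7-negative cells.

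The libraries as a whole were then compared over all kept cells. FGF2 was at 0.0703 (0.0608 to 0.0808) in CT-LCG against 0.0433 (0.0390 to 0.0480) in FT-LCG, a log2 ratio of 0.70 (0.44 to 0.95). FGFR1 was at 0.182 (0.167 to 0.199) and 0.324 (0.312 to 0.336), a ratio of -0.83 (-0.97 to -0.69). FGFR2 was at 0.188 (0.173 to 0.205) and 0.301 (0.289 to 0.312), a ratio of -0.68 (-0.81 to -0.54). Both receptors were thus lower per UMI in CT-LCG, and FGFBP1, at 1.42 (1.37 to 1.46) and 1.96 (1.94 to 1.99), was lower as well, by -0.47 (-0.52 to -0.42) on the log2 scale. FGF5 gave -1.15 (-2.86 to 0.21), an interval that includes 0. FGF7 was at 0.0373 (0.0305 to 0.0452) and 0.0255 (0.0223 to 0.0292), a log2 ratio of 0.55 (0.20 to 0.89), which became -0.66 once the cell with the most FGF7 UMIs in each library was left out.

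These differences were then set against the background. Of the 13014 genes with at least 100 UMIs, 8.41% were at least 2-fold lower in CT-LCG and 7.24% at least 2-fold higher. By any amount 52.1% were lower, with a median log2 ratio of -0.03 and quartiles of -0.42 and 0.38. All 5 members with at least 100 UMIs lay outside these quartiles, yet 0 were 2-fold apart in either direction. Of these 5 members, 3 were lower in CT-LCG. Without the top cells of FGF7 4 were lower. Under other weightings some passed 2-fold, FGF2 at 1.41 and FGFBP1 at -1.50 with equal weights of clusters and FGF7 at -1.24 with thinned cells. The ratios also mixed clusters. Within clusters FGFR1 was lower in CT-LCG in the SOCS3-led cells, at -2.39 (-3.47 to -1.49), and higher in the SFRP1-led cells, at 0.46 (0.17 to 0.75), and FGFR2 was lower in basal epidermal-like cells, at -0.96 (-1.34 to -0.59), and higher in SFRP1-led cells, at 1.4 (0.78 to 1.99). A single ratio over all cells therefore did not describe the receptor levels in each cell type. The higher FGFR1 level of the SFRP1-led cells in CT-LCG was not seen by cells, with thinned shares of 13.2% against 16.6% in FT-LCG. For FGFR2 these shares were 7.02% and 2.62%, and the intervals of both genes overlapped between the libraries.

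**Figure D5:**
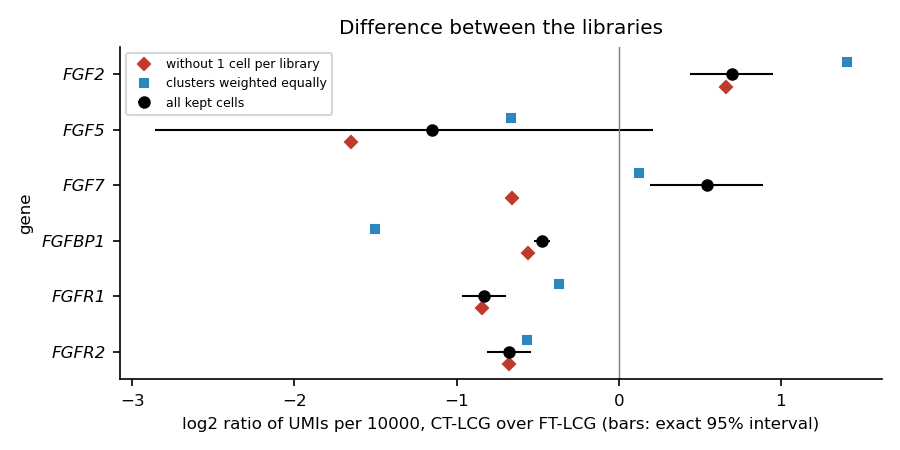
Log2 ratio of the level in CT-LCG to that in FT-LCG for the 6 members: black points with exact binomial 95% intervals over all kept cells, diamonds without the cell with the most UMIs in each library, and squares with all clusters weighted equally. FGF2 was at 0.70, FGFR1 at -0.83 and FGFR2 at -0.68 over all kept cells, FGF7 went from 0.55 to -0.66 without its top cells, and equal weights moved FGF2 to 1.41 and FGFBP1 to -1.50.

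The rest of the pathway was described by fixed lists, of which 68 of 71 genes were among the features. For the receptors and their partners, all 4 genes with at least 100 UMIs had point estimates lower in CT-LCG, with 1 of them at least 2-fold lower and a median log2 ratio of -0.75. That gene was FGFRL1, a receptor without a kinase domain, with 40 UMIs in CT-LCG against 257 in FT-LCG and a ratio of -1.07 (-1.59 to -0.58). It was highest in endothelial-like cells, at 0.141 and 0.132. Among the FGF ligands with at least 100 UMIs 3 were lower and 4 higher. The median of 0.55 was the ratio of FGF7 itself, and with FGF7 at -0.66 it was -0.17, with 4 lower and 3 higher. FGF18 alone was at least 2-fold higher, at 1.12 (0.83 to 1.41). FGF11 was at -0.77 and FGF12 at -0.38. Of the binding proteins FGFBP1 alone had enough UMIs.

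Heparan sulfate proteoglycans, the co-receptors that hold FGFs at the cell surface and in basement membranes, included several genes lower in CT-LCG. Of 9 genes with at least 100 UMIs 7 were lower and 2 higher, 5 were at least 2-fold lower and 1 at least 2-fold higher, and the median log2 ratio was -1.16. SDC2, highest in fibroblast-like cells with levels of 2.63 in CT-LCG against 2.13 in FT-LCG, had 358 and 3075 UMIs and a ratio of -1.49 (-1.65 to -1.33). GPC3, highest in the same cluster at 0.475 and 1.80, was at -1.20 (-1.83 to -0.62), and SDC3, also highest there, at -0.11 (-0.39 to 0.16). The 3 most abundant were epithelial. SDC4, with 15543 and 29615 UMIs, was at 0.68 (0.66 to 0.71), SDC1, with 5924 and 22837, at -0.33 (-0.37 to -0.29), and GPC1, with 1942 and 2743, at 1.12 (1.03 to 1.2).

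Of 7 adaptor and signalling genes downstream of the receptors 6 were higher and 1 lower in CT-LCG, none by 2-fold. Their median was 0.30, where 52.1% of all genes were lower. GRB2, the adaptor that links receptors to RAS, was at 0.88 (0.81 to 0.94), GAB1, a docking protein, at 0.58 (0.47 to 0.70), and the phosphatase PTPN11 at 0.30 (0.24 to 0.37). Of 15 feedback and target genes 10 were higher and 5 lower, 2 at least 2-fold higher and 0 at least 2-fold lower, with a median of 0.31. The pair were SPRY4, a feedback inhibitor with 58 UMIs in CT-LCG against 53 in FT-LCG, at 1.74 (1.18 to 2.31), and DUSP6, an ERK phosphatase with 2044 and 2976 UMIs, at 1.07 (0.99 to 1.15). Both were highest in the mast cell-like cluster, DUSP6 at 4.42 in CT-LCG against 2.5 in FT-LCG, and IL17RD, a further inhibitor, was highest there as well with 35 and 76 UMIs in all.

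Of the feedback genes highest in the fibroblast-like cluster, SPRED2 was at -0.67 (-0.87 to -0.48), ETV4, a transcription factor induced by FGF signalling, at -0.50 (-0.90 to -0.11), SPRED1 at -0.30 (-0.48 to -0.13), SPRED3 at -0.06 (-0.58 to 0.44) and DUSP4 at 0.22 (0.02 to 0.43). EGR1, an immediate early gene that many stimuli induce, had the most UMIs of the list, 16236 and 40032, and was at 0.31 (0.29 to 0.34). FLRT3, a membrane protein that binds FGF receptors, was at 0.40 (0.33 to 0.47). None of these targets is specific to FGF receptors, and the counts of each list stand beside the same shares over all 13014 genes given above.

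Genes with the pattern most like each member were sought over 40 points, the 20 clusters in both libraries, which share their libraries and depths. For FGF2 they were SAMD11 (Pearson's r = 0.889), STEAP2 (0.882), PTCH1 (0.849), STEAP1 (0.847) and CCDC171 (0.837). For FGF7 they were PTCH1 (0.789), LOC102184551 (0.778), WFDC2 (0.752), CHPF (0.751) and GFRA1 (0.742), so that PTCH1, the hedgehog receptor, appeared in both lists. For FGFR1 they were RDX (0.889), SHC2 (0.862), TIMP3 (0.845), FILIP1L (0.845) and SEPN1 (0.832). For FGFR2 they were PROSC (0.794), TRIP6 (0.790), IFT81 (0.790), WLS (0.784) and NFIX (0.769), and for FGFBP1 MPST (0.760), PLIN3 (0.740), TST (0.730), KCNK1 (0.708) and RBM47 (0.707). FGF5 had too few UMIs for this measure. Among the members themselves r was highest for FGF2 with FGF7, at 0.666, and for FGF7 with FGFR1, at 0.645, and it was 0.175 for FGFR1 with FGFR2.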

How the data were processed

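Per the labels and the study's methods, skin cells were captured with the 10x Chromium 3' v3 kit. The authors used Cell Ranger (3.0.2 in the matrix header) and Seurat 3.1.1. The deposited matrices hold raw UMI counts per gene and cell, and the deposited table of kept cells gives the fibre type, which the labels do not. The goat genome build is not given in the sources used here, and IDs came from a RefSeq goat table that matched 27103 of 27137 features. The kept cells, 3443 of 6102 and 9608 of 11197 barcodes, held 27890472 and 85400323 UMIs, or 729 to 172185 and 630 to 190503 per cell. Counts were normalised, corrected for library with Harmony and clustered with Leiden (leidenalg 0.10.2) on 10 principal components of 2000 variable genes at resolution 1, and the fibroblast-like cluster was clustered again. A cluster was named where the mean log2 fold of a marker list reached 1, at least 2 of its markers were among the top 20 genes and no other list came close. This rule was written after first cluster results had been seen. A Scrublet caller marked 0 cells in both libraries and so had not worked, and leaving out the 5% of cells with the highest scores was an alternative.

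Levels are UMIs per 10000 with exact Poisson intervals, shares have Clopper-Pearson intervals, ratios have exact binomial intervals, a count of 0 allows up to 3 counts, and shares were repeated with cells thinned to 1000 UMIs. Patterns used Pearson's r of log2(level + 0.1) over genes with at least 200 UMIs, naming the 5 of highest r. Members are all given. Other pathway genes were named when they had at least 100 UMIs and were among the 3 most abundant of their list or highest in the same cluster as a member. Scripts were tested on simulated counts. Members and lists were chosen with earlier results of these data known. Python 3.11.15, numpy 2.4.6, scipy 1.17.1 and scanpy 1.11.5 were used.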

Additional observations from a re-analysis of the deposited data

Results flagged for a closer look

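Signal of the members was also present in the barcodes that the authors did not keep, 2659 in CT-LCG and 1589 in FT-LCG, above the 3 counts that a count of 0 allows. FGFR1 had 32 UMIs there in the CT-LCG library against 90 in the FT-LCG one, and its FT-LCG level of 0.903 (0.726 to 1.11) per 10000 UMIs was above the 0.324 of the kept cells, whereas in CT-LCG it was 0.162 (0.110 to 0.228) against 0.182. FGFR2 had 59 and 47 UMIs, at 0.298 (0.227 to 0.384) and 0.472 (0.347 to 0.627), both above the kept cells. FGFBP1 had 148 and 167 UMIs, at 0.747 (0.631 to 0.877) and 1.68 (1.43 to 1.95), both below the 1.42 and 1.96 of the kept cells. FGF2 had 10 and 6 UMIs and FGF7 had 4 in CT-LCG, with intervals that include the kept level. FGF5 had 0 in both libraries.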

How the results depend on the processing

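No paired analysis was possible because each fibre type has 1 library. The cells in which each of the 6 members was highest were the same in 4 to 6 members under 13 of the 16 alternatives, and in 2 with 20 principal components. With 1 library left out, the count ranged from 1 to 3: it was 3 with CT-LCG alone and 1 with FT-LCG alone. In the new clustering of FT-LCG, FGF2 was highest (0.240) in a cluster of which 57.3% were cortex or matrix-like cells. FGFR1 was highest (1.71) in a cluster of which 80.2% were SFRP1-led cells. FGF2 and FGFR1 kept their cells in 15 of 16 alternatives, FGF7 in 14, FGF5 in 11, and FGFBP1 and FGFR2 in 10. Of the ratios between libraries, the one for FGF7 turned to -1.24 with cells thinned to 1000 UMIs, to -0.66 without the cell with the most UMIs of each member and to -0.78 without cells over 100000 UMIs, the last 2 added after the data were seen. The other members kept their sign except FGF5, which was 0.48 when thinned. Of the 25 genes of most similar pattern, 15 were found again with a pseudocount of 0.5 and 13 with a minimum of 1000 UMIs, where 0 of those for FGF2 and FGF7 remained. The 12 lost at that minimum had under 1000 UMIs, so the filter itself removed them. The causes of the other changes were not tested. Depth limits FGF5 in all clusters and all ligands in clusters under 100 cells.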
